A study of Mus musculus with 4 samples.

Results

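Small nuclear RNA (snRNA) genes with a Pol II peak nearby were examined in primary mouse osteoblasts cultured with OSS_128167, an inhibitor of the deacylase SIRT6, and in osteoblasts whose sample title names no treatment. The set comprised the genes of biotype snRNA on chromosomes 1 to 19 in the RefSeq table of GRCm38.p6 that had at least 1 listed peak within 1000 bp in either list. It held 65 of 924 snRNA genes, all 65 in the OSS_128167 list and 3 of them also in the untreated list. The genes were chosen by the positions of the listed peaks, so the presence, folds (enrichment over background), FDR values (false discovery rates) and heights of these peaks are a description and were not tested. In the OSS_128167 list a peak lay within 1000 bp of 7.03% of snRNA genes, against 24.2% of all genes and 7.36% of other genes of at most 400 bp. In the untreated list the shares were 0.325% of snRNA genes, 1.46% of all genes and 0.273% of other genes of at most 400 bp.

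The study deposited 4 samples of primary osteoblasts, 1 Pol II ChIP-seq library and 1 input per condition, and the 2 Pol II peak lists were used here. Per the labels, bone marrow mesenchymal stem cells grown out of bone pieces of young mice were kept in osteogenic medium, and the treatment field names OSS_128167 for every sample, so the untreated group rests on its title (WT osteoblasts) alone. The antibody was against Pol II in both libraries, although the peak names of the OSS_128167 list carry the word SIRT6. Each condition had 1 Pol II library, so no difference between the lists was tested and none can be assigned to the compound. Of 40748 OSS_128167 peaks 6568 had an FDR of 0.05 or less, and of 1694 untreated peaks 109. Sequencing depth is unknown, because the lists hold no read totals. Of 9 osteoblast markers 5 had a peak within 1 kb of a gene boundary in the OSS_128167 list, against 14.8% of protein-coding genes. They were Runx2, Sp7, Sparc, Col1a1 and Col1a2, while Alpl, Bglap, Ibsp and Spp1 had none. Of the markers of other cells Cd68 (1 of 5 macrophage genes) and Pecam1 (1 of 3 endothelial genes) had one, and none of 3 adipocyte genes did. The Pecam1 peak had an FDR above 0.05. In the untreated list 1 of the 9 osteoblast markers had a peak, with an FDR above 0.05, against 0.417% of protein-coding genes.

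The spliceosome removes introns with the help of the U1, U2, U4, U5 and U6 snRNAs, and of U11 and U12 for a minor class of introns, while U7 directs the 3′ end processing of replication-dependent histone mRNAs. Most of these genes are transcribed by Pol II from compact promoters with a proximal sequence element and a distal element that often carries an octamer, and Integrator cleaves the transcript near its end. U6 and the 7SK RNA, which holds the elongation factor P-TEFb in an inactive state, are made by Pol III from promoters that add a TATA box. U3 guides the processing of ribosomal RNA in the nucleolus and is likewise a Pol II transcript, and the RefSeq table lists its genes as snRNA. Vertebrate snRNA genes come in several near-identical copies and a large number of degenerate relatives.

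The type of most genes could not be read from their names, since 907 of the 924 carry a provisional Gm or LOC symbol. The RefSeq promoter table has no window for snRNA genes, but windows of neighbouring genes cover 2 of them whole. Rnu7, the U7 gene, lies on chromosome 6 within the window of Grcc10 and carried a peak. LOC115489800, a gene of 166 bp like Rnu1b6, lies on chromosome 3 within the window of the long non-coding RNA gene Gm26232 and had no peak within 35004 bp. Both are shown because they are the snRNA genes whose letters could be read here. Capitals mark the Sm site, on which the Sm protein ring assembles, and in LOC115489800 also the stretch near the 5′ end with which U1 pairs to 5′ splice sites.
Rnu7, chr6:124741225-124741286, minus strand: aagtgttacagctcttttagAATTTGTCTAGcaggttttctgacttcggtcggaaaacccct
LOC115489800, chr3:96450446-96450611, plus strand: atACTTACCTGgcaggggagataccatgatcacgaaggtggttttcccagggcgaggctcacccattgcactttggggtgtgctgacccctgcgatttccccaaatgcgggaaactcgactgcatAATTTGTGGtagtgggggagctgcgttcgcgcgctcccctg

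The 65 genes fell into those under a peak and those beside one. A peak overlapped 35 genes, and at the other 30 the nearest peak lay 138 to 958 bp away, with a median of 594.5 bp. The overlapped genes had best folds of 2.46 to 22.2 with a median of 10.1, and 32 of the 35 had an overlapping peak with an FDR of 0.05 or less, which makes 3.46% of all snRNA genes, against 5.88% of all genes and 1.82% of other short genes. The genes beside a peak had best folds of 1.69 to 14.6 with a median of 2.87, which is also the median of all 40748 peaks of the list, and 6 of the 30 had an FDR of 0.05 or less. Within 1000 bp the count at this limit was 38 genes, or 4.11% of snRNA genes, against 6.93% of all genes and 3.38% of other genes of at most 400 bp. In the plot of fold against distance, 30 overlapped genes stood above every gene beside a peak except Gm23137, which shared its peak with the U3 gene Rnu3b1. Peak lengths differed likewise, with a median of 1419 bp (226 to 2527) over genes and 302 bp (226 to 1082) beside them. Of the 30 peaks beside genes 10 had the shortest length in the list, 226 bp, as did 28.0% of all its peaks.

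**Figure D1:**
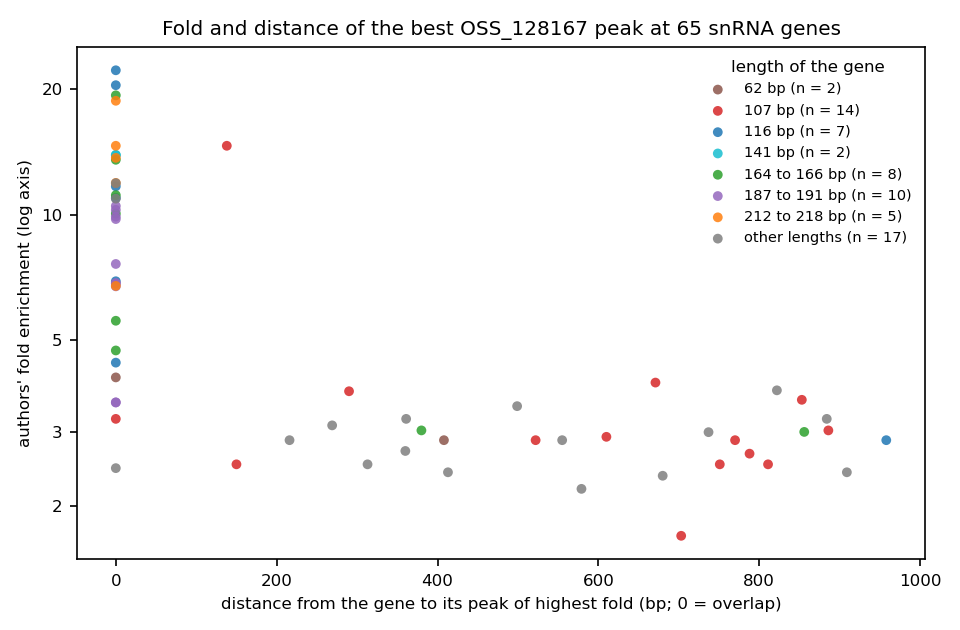
Authors' fold enrichment of the peak of highest fold (log axis) against its distance from the gene in bp for the 65 snRNA genes in the OSS_128167 list, each point 1 gene coloured by its length. Points at 0 bp reach 22.2, while beside the genes all but Gm23137 (138 bp, 14.6) lie at or below 3.95.

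The genes whose symbol gives a type were mostly of Pol II types. Of 14 such genes of Pol II types (4 U1, 5 U3 and 1 each of U2, U5, U7, U11 and U12) 11 were overlapped by a peak in the OSS_128167 list, against 3.79% of all snRNA genes and 21.3% of all genes. Of these 11 genes, 5 lie in 1 cluster inside Tex14 and are not independent. Of the 2 genes of Pol III types neither had a peak within 1000 bp, where 7.03% of all snRNA genes and 24.2% of all genes had one. A count over 2 genes cannot separate the types. The nearest peak was 5169 bp from Rnu6, the U6 gene, and 17601 bp from Rn7sk, the 7SK gene. Among other Pol III genes, the nearest peak was 29192 bp from Rpph1, the RNA of RNase P, and 18791 bp from Rmrp, the RNA of RNase MRP. At Rprl3, an RNase P RNA-like gene, the nearest peak was 3935 bp away. Peaks did overlap 10 of 386 tRNA genes (2.59%), which are also Pol III transcripts. A list of peaks cannot show a signal below the caller's limit.

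Rnu5g, a U5 gene on chromosome 9 from 65201726 to 65201841, had the highest fold of the set. Its peak of 1679 bp had a fold of 22.2, an FDR of 1.58e-67 and a pileup (height of signal) of 64, and ranked 2 by fold in the whole list. Rnu1a1, a U1 gene on chromosome 11 from 87422867 to 87423030, had a peak of 1966 bp with a fold of 19.3 and a pileup of 103. Rnu12, which encodes the U12 snRNA of the minor spliceosome on chromosome 15, had a fold of 11.9 and a pileup of 57. Rnu11, its partner at the 5′ splice site of minor introns, on chromosome 4, had a fold of 10.9, a pileup of 52 and the longest peak of the set, 2527 bp. Folds were lower at Rnu2-10, a U2 gene (6.73, pileup 37), and at Rnu7 (4.07, pileup 23).

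The U3 genes were all under peaks. Rnu3b4 had a fold of 18.8, Rnu3b1 14.6, Rnu3b2 13.7, Rnu3a 11.9 and Rnu3b3 6.74. Fold and height ordered them differently, since Rnu3b3 and Rnu3b4 had the same pileup of 105, the highest of the set. If the fold is the pileup plus 1 over a local background plus 1, the background was 14.7 at Rnu3b3 and 4.65 at Rnu3b4. Snord73b, a small nucleolar RNA gene inside Rps3a1 that the table also lists as snRNA, had a peak of 226 bp with a fold of 2.46 and an FDR of 0.377.

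The U1 genes Rnu1b1, Rnu1b2 and Rnu1b6 had no peak within 88094, 102162 and 25426 bp. Spliceosomal snRNA genes have close copies. Reads that match several copies equally well cannot be assigned to 1 of them, and how the authors treated such reads is not given in the sources used here. A peak at one copy and none at another may therefore not show which copy was occupied, and the part of read sharing in these values was not tested.

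The share of genes under a peak was described by gene length. Length groups were formed after the values were seen, from the lengths of the genes with a typed symbol and from lengths that recurred among the overlapped genes. The groups of 141 bp and of 187 to 191 bp were drawn from overlapped genes, so high shares there follow in part from the grouping. The typed genes that set the groups of 62, 116 and 212 to 218 bp were also overlapped themselves, and they count in those shares. So does Rnu1a1, whose length bounds the group of 164 to 166 bp. A shared length does not give a gene's type. Of the 9 genes of 116 bp, the length of Rnu5g, 6 were overlapped in the OSS_128167 list (66.7%, exact 95% interval 29.9 to 92.5). Of the 17 genes of 187 to 191 bp, which include Rnu2-10 with 187 bp, 10 were (58.8%), and of the 5 genes of 141 bp 2 were, under 1 shared peak. All 5 genes of 212 to 218 bp, which are the named U3 genes, were overlapped. Of the 51 genes of 164 to 166 bp, the lengths of the named U1 genes, 7 were overlapped (13.7%, 5.70 to 26.3).

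Genes of 107 bp, the length of Rnu6, were the most numerous and were almost free of overlapping peaks. Of 352 such genes 1 was overlapped (0.284%, 0.00719 to 1.57), against 3.16% of other genes of at most 400 bp. That gene, Gm23422 inside Spag16 on chromosome 1, had a peak of 226 bp with a fold of 3.23 and an FDR of 0.159, and no overlapping peak at these 352 genes had an FDR of 0.05 or less. Within 1000 bp 14 of the 352 had a peak (3.98%, 2.19 to 6.58), so 13 of the 30 genes beside a peak were of this length. Among lengths outside all groups 3 of 465 genes were overlapped (0.645%, 0.133 to 1.87), namely Rnu11, Rnu12 and Snord73b. This interval overlaps that of the 107 bp genes, so a low share was not particular to 107 bp. Of the 20 genes of 62 bp only Rnu7 was overlapped (5%, 0.127 to 24.9). For comparison, peaks overlapped 5.02% of 1276 small nucleolar RNA genes, 2.99% of 1136 microRNA genes and 2.59% of 386 tRNA genes, which are Pol III transcripts. Neighbouring genes are not independent, and these intervals cover counting only.

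**Figure D2:**
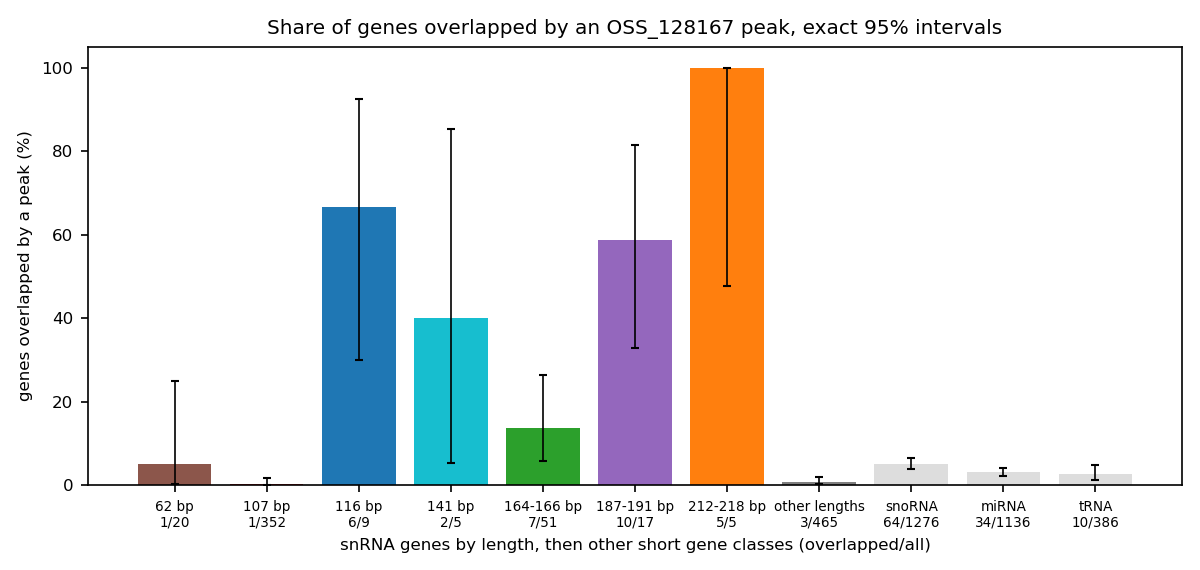
Share of genes overlapped by an OSS_128167 peak (percent, axis from 0) for snRNA genes by length and for 3 other classes of short genes, with exact 95% intervals (counting only) as error bars and the overlapped and total numbers under each bar. The 107 bp group stands at 0.284% and the 116 bp group at 66.7%. Groups were formed after the values were seen, several of them from the lengths of overlapped genes.

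Genes without a typed symbol were also among those of high fold. Gm25099 (116 bp, chromosome 4 from 117189942 to 117190057) had a fold of 20.5 and a pileup of 67, and ranked 4 in the list. Gm24265 and Gm24407 (141 bp, chromosome 5) shared a peak with a fold of 13.9. Gm22513 (164 bp, chromosome 12) had a fold of 13.5, LOC115487699 (116 bp, chromosome 1) 11.7, Gm22317 (164 bp) 11.1, Gm25313 (116 bp) 11.0, Gm25939 (191 bp) 10.5 and Gm24950 (191 bp) 10.3. Peaks within 1000 bp of the 65 genes made up 7 of the 10 peaks of highest fold in the list, 19 of the 50 highest and 22 of the 100 highest. In all 73 distinct peaks of the 40748 in the list lay within 1000 bp, and 55 genes had 1 peak and 10 genes 2. The 7 include the peak shared by Gm24265 and Gm24407, which also covers a boundary of Sirt4. They also include the peaks of Rnu1a1, Rnu3b4, Rnu3b1 and Rnu3b2, which lie in 1 cluster and are not independent.

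Most overlapped genes lay in clusters. With members linked at 100 kb or less, 25 of the 35 overlapped genes had another member in their cluster, against 1 of the 30 genes beside a peak, and 8 clusters held several overlapped genes. Of the 859 snRNA genes without a peak 10.5% had any snRNA gene within 100 kb, against 44.6% of the 65. Members of 1 cluster are not independent.

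The cluster inside Tex14 on chromosome 11, from 87422867 to 87471582, held 7 snRNA genes and mixed U1 with U3. Its 5 overlapped genes were Rnu1a1, Rnu3b1, Rnu3b3, Rnu3b4 and Rnu3b2, with pileups of 52 to 105, and each had its own peak. Gm23137, a gene of 107 bp, lay 138 bp from the peak of Rnu3b1. The remaining gene, Gm22068, has the 164 bp of Rnu1a1 and lay 2105 bp from the nearest peak.

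A second cluster on chromosome 11, from 101604850 to 101658424, held 5 genes of 187 to 191 bp, and all 5 were overlapped. Their folds were 3.54 at Gm26316, 6.85 at LOC115487916, 10.3 at Gm24950, 9.76 at Gm23971 and 6.73 at Rnu2-10. On chromosome 1, from 72226240 to 72255198, 4 of 4 genes of 191 bp were overlapped, with folds of 6.83 at Gm25360, 3.54 at Gm23472, 7.61 at Gm24497 and 10.5 at Gm25939. In both clusters the folds thus ran from 3.54 to over 10 among genes of nearly the same length.

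Clusters of genes of 164 to 166 bp were under listed peaks in part. On chromosome 12, from 54696782 to 54738622, 3 of 7 genes of 164 bp were overlapped, namely Gm22513, Gm22634 (fold 10.1) and Gm22317, which include the first and last of the row. The other 4 lay 2661 bp (LOC115488065), 7606 bp (Gm25679), 7910 bp (Gm26444) and 2957 bp (LOC115488077) from the nearest peak. On chromosome 3, from 96328425 to 96488893, 2 of 8 genes were overlapped, Gm25890 with a fold of 4.72 and Gm22614 with 5.56. The 6 others, Rnu1b1, Rnu1b2, Rnu1b6 and LOC115489800 among them, lay 25426 to 102162 bp from a peak. The letters of LOC115489800 shown above hold both U1 stretches, so a copy can carry them and still be without a listed peak. Since copies may share reads, as said above, a missing peak may not show that a copy was unoccupied.

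**Figure D3:**
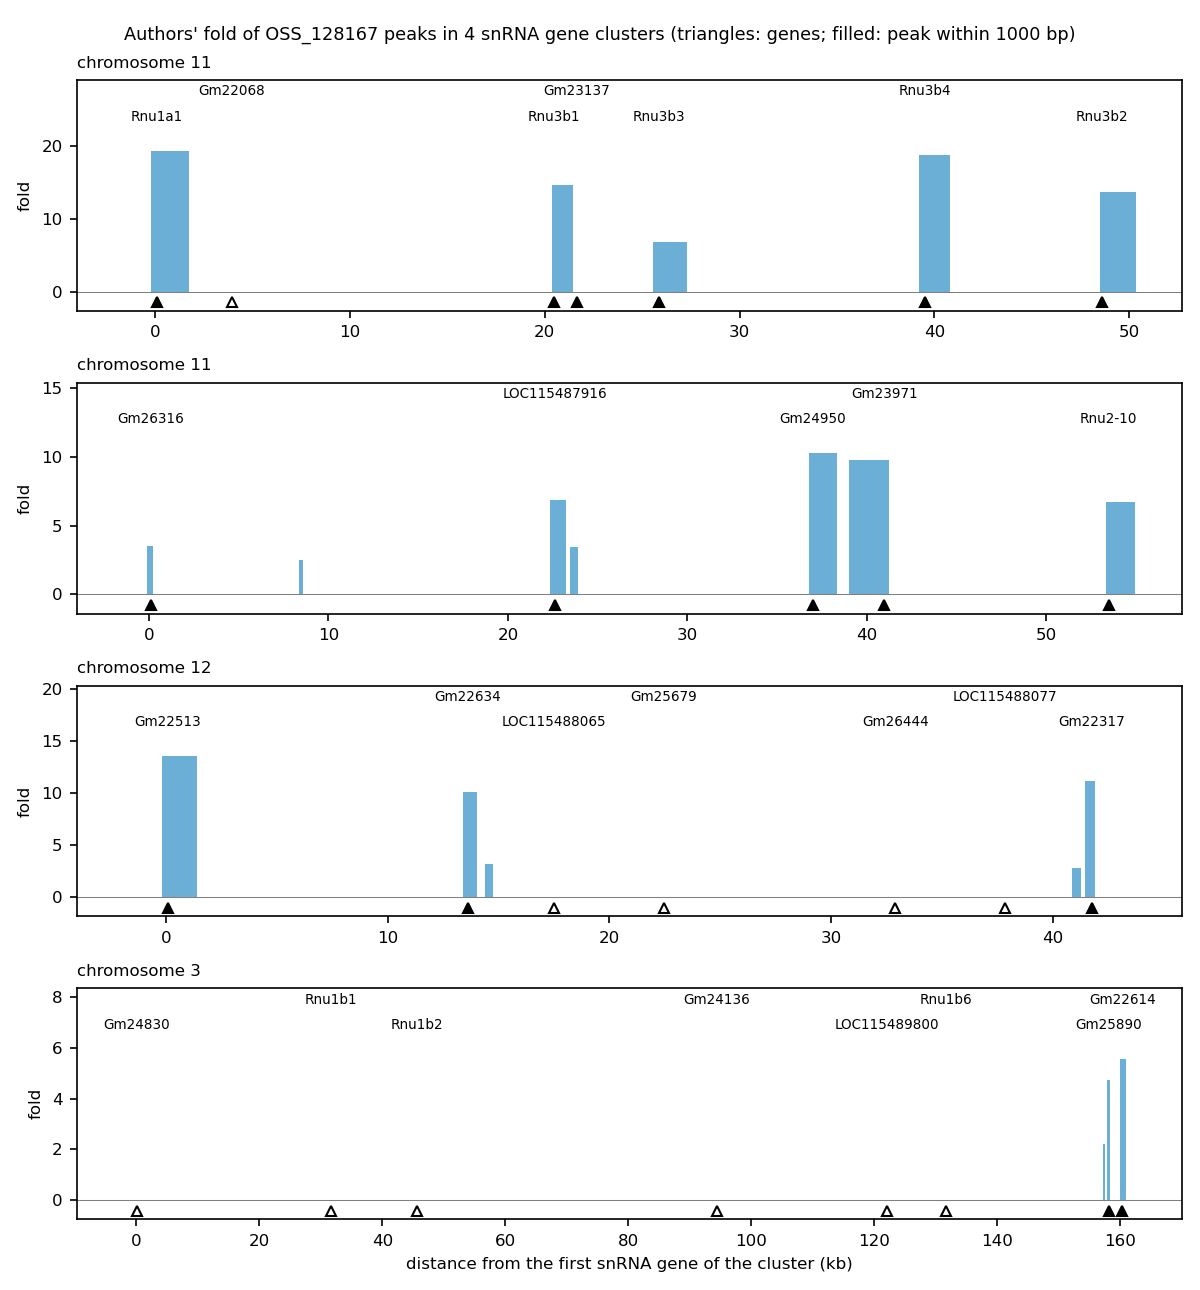
Authors' fold of each OSS_128167 peak (bars, drawn at their width) along 4 snRNA gene clusters, in kb from the first gene. Triangles mark the genes, filled where a peak lies within 1000 bp. The second panel has a peak over all 5 genes, and the last over 2 of 8.

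Smaller clusters completed the set. On chromosome 9 the U5 gene Rnu5g and Gm25313, of the same length, lay next to each other with pileups of 64 and 33. On chromosome 4 Gm25099 and Gm23143 were overlapped with pileups of 67 and 15, and the remaining gene of 116 bp there, Gm23287, lay 7995 bp from a peak. Single overlapped genes included Gm23444 (191 bp, chromosome 11, fold 9.89) and Gm22265 (116 bp, inside Hhat on chromosome 1, fold 6.92).

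Peaks over snRNA genes reached farther past one side of the gene than past the other. At 30 genes the peak of highest fold held the whole gene. It reached 35 to 509 bp past the nearer side, with a median of 153 bp, and 111 to 2265 bp past the other, with a median of 1111.5 bp. At 22 of the 30 the shorter reach was between 100 and 230 bp, and at 24 the longer reach was at least 3 times the shorter one. The sides were sorted by length at each gene, so some inequality is built in. The longer side was that of higher coordinates at 19 genes and of lower coordinates at 11, and the gene table gives no strand. All 5 overlapped genes of the Tex14 cluster had the longer reach on the side of higher coordinates. Of these, Rnu3b1 and Rnu3b2 are outside the 30, since their peaks start inside the gene. The 2 genes on chromosome 9 had the longer reach on the lower side. At Rnu7, whose strand was read from its sequence, the peak reached 550 bp past the 3′ end and 305 bp before the 5′ end. The 3′ reach also covered the boundary of Grcc10 at 124741069, so it cannot be assigned to Rnu7 alone.

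**Figure D4:**
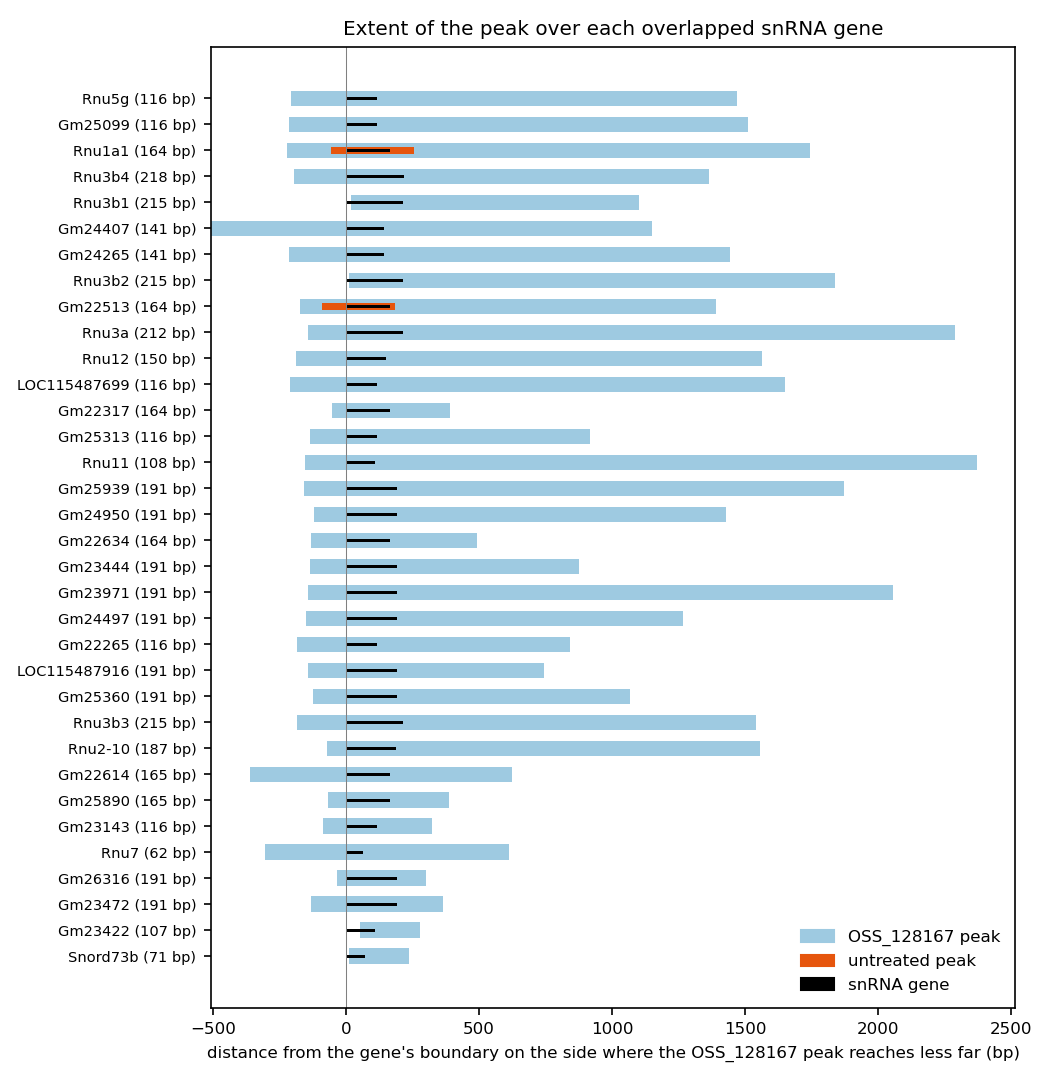
Extent of the best OSS_128167 peak (blue), the untreated peak (orange) and the gene (black) at the 34 genes whose peak of highest fold overlaps them, ordered by fold. The x axis is the distance in bp from the gene boundary on the side where the peak reaches less far, and at 23 of the 30 genes held whole the peak runs at least 500 bp past the opposite side.

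At small nucleolar RNA and microRNA genes inside a strong peak the median shorter reach was longer than at snRNA genes. Among peaks with an FDR up to 1e-05, the median shorter reach was 159 bp at 27 snRNA genes, 654 bp at 34 small nucleolar RNA genes and 712 bp at 7 microRNA genes. At 3 tRNA genes it was 111 bp. Genes under 1 shared peak were each counted, as Gm24265 and Gm24407 were, so the genes are not independent. Unequal reach was seen in each of these classes, with a median ratio of the longer to the shorter reach of 6.51 at snRNA genes, 3.67 at small nucleolar RNA genes, 5.05 at microRNA genes and 2.32 at tRNA genes. It was at least 3 at 23 of the 27 snRNA genes, 21 of 34 small nucleolar RNA genes, 5 of 7 microRNA genes and 1 of 3 tRNA genes.

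Promoter windows near 4 members could be searched for the octamer ATGCAAAT on both strands. RefSeq windows of neighbouring genes (GRCm38.p6, 250 bases before to 50 after each start) lay within 300 bp of Gm24497, LOC115487699, Gm25541 and Rnu7. The octamer was found beside Gm24497 and LOC115487699, and in 1.74% of all 32851 windows. It lay 222 bp from Gm24497 and 216 bp from LOC115487699, in both cases on the side where the peak reached less far, 70 bp and 5 bp outside the peak. The windows beside Gm25541 (246 bp away) and at Rnu7 did not hold these letters. Both matches lie in promoter windows of other genes, D230017M19Rik and Alyref2. Whether they belong to these genes or to the snRNA genes cannot be told here. The matches are shown because they sit at nearly the same distance from 2 overlapped genes, and capitals mark the octamer, in reverse complement in the second.
Beside Gm24497, chr1:72243914-72243991, plus strand: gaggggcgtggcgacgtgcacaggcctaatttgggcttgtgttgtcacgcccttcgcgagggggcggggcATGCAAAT
Beside LOC115487699, chr1:171503309-171503456, minus strand: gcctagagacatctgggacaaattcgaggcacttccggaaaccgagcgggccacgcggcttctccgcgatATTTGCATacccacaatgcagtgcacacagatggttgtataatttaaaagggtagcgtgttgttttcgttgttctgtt

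A boundary of a protein-coding gene lay within 1000 bp of 9 of the 65 genes (13.8%, exact 95% interval 6.53 to 24.7), against 22 of 859 snRNA genes without a peak (2.56%, 1.61 to 3.85). Within 5000 bp the shares were 24.6% (14.8 to 36.9) and 15.1% (12.8 to 17.7), whose intervals overlap. A peak of a neighbour within 1000 bp can itself bring an snRNA gene into the set. The difference at 1000 bp is thus in part built in, and it was not tested. Of the 9, 8 were under a peak. At 4 of these the peak also covered the boundary of the neighbour, and signal from the snRNA gene and from its neighbour cannot be told apart there. Inside a protein-coding gene lay 24 of the 65 (36.9%, 25.3 to 49.8), near the 35.2% of genes without a peak.

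The peak at Sirt4, a mitochondrial sirtuin gene, covered 2 snRNA genes of 141 bp. It ran on chromosome 5 from 115489244 to 115490903 with a fold of 13.9, an FDR of 5.97e-45 and a pileup of 56. Sirt4 spans 115478006 to 115490264, so the peak lay over its upper boundary and 11238 bp from its lower one. Gm24265 lies inside Sirt4, 665 bp from that boundary, and Gm24407 straddles it. The peak reached 215 bp past Gm24265 on the lower side and 509 bp past Gm24407 on the higher side. Its share from Sirt4 and from either snRNA gene cannot be told apart.

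At the other neighbours the peak lay over the snRNA gene and mostly stopped short of the protein-coding one. The peak of Gm22513 ended 708 bp from Eapp, that of Rnu3a 612 bp from Gtf3c6, that of LOC115487699 104 bp from Alyref2 and that of Rnu12 80 bp from Poldip3. No other peak with an FDR of 0.05 or less lay nearer to the boundary of these 4 genes that faces the snRNA gene. The gaps of 80 and 104 bp are shorter than the shortest peak of the list, 226 bp. A peak that stops short of a boundary thus does not separate the signal of the snRNA gene from that of its neighbour. The peak of LOC115487916 covered a boundary of Rdm1, and that of Rnu7 a boundary of Grcc10. LOC115486563, inside Rnf225, was the 1 gene beside a peak in this group, with a fold of 3.95 at 671 bp.

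In the untreated list 3 of the 65 genes had a peak within 1000 bp and 2 an overlapping one, which makes 0.216% of all snRNA genes, against 1.33% of all genes and 0.0682% of other genes of at most 400 bp. At Rnu1a1 the untreated peak had 312 bp, a fold of 4.85, an FDR of 0.0736 and a pileup of 10.86. At Gm22513 it had 276 bp, a fold of 4.37, an FDR of 0.395 and a pileup of 9.78. Both untreated peaks lay inside the OSS_128167 peak of the same gene, and reached at most 92 bp past the gene on either side. The OSS_128167 peaks there had 1966 and 1568 bp. Rnu5g, Gm25099 and the U3 genes, with OSS_128167 folds up to 22.2, had no untreated peak. Folds of the lists are on separate scales, and the lists differ throughout in number of peaks, so these values are given side by side only.

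The other gene with an untreated peak was Gm22360, of 107 bp, on chromosome 1. It lay 971 bp from an untreated peak with a fold of 5.04 and an FDR of 0.00189, and 703 bp from an OSS_128167 peak with a fold of 1.69 and an FDR of 0.676. It was the single member with an untreated peak at an FDR of 0.05 or less (0.108% of snRNA genes, against 0.0982% of all genes). Such a peak overlapped 0 of 924 snRNA genes, against 0.0812% of all genes.

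Genes beside a peak carried low folds with few exceptions. Besides Gm23137, the genes with an FDR up to 0.05 were LOC115486563 (fold 3.95), Gm23196 inside Npnt (3.79), Gm24753 (3.77), Gm23059 (3.59) and Gm25918 (3.47). The other 24 had an FDR above this limit. At the edge of the window the farthest members were Gm24043 at 958 bp (fold 2.87), Gm23169 at 909 bp (2.41) and Gm24707 at 886 bp (3.03). Just outside it were Gm25473 at 1019 bp (2.71), Gm22836 at 1029 bp (2.87) and Gm23851 at 1068 bp (2.77).

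Genes for proteins that make, process and bind snRNAs had gene-end peaks at part of their members. In the OSS_128167 list 25 of 97 such genes (25.8%) had a peak within 1 kb of a boundary, against 14.8% of protein-coding genes, and 12 (12.4%) had one with an FDR up to 0.05, against 5.48%. None had one in the untreated list, where 0.417% of protein-coding genes did. Among the 11 genes of transcription from snRNA promoters 2 had one, Zfp143, whose product binds distal elements (fold 4.81, FDR 3.7e-05), and Snapc5, a subunit of the complex that binds the proximal element (4.76, FDR 3.71e-07). Of 14 Integrator genes 5 did, Ints7 (4.44) first, followed by Ints13 (3.57), Ints6 (3.48, FDR 0.0619), Ints11 (3.23, FDR 0.159) and Ints2 (3.19, FDR 0.00882), of which Ints7, Ints13 and Ints2 passed an FDR limit of 0.05. Of 8 genes of the SMN complex and coilin, which assemble and concentrate snRNPs, 4 had one, with Gemin6 highest at 7.79 and alone at that limit.

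Among genes of core snRNP proteins the counts ran from none to 5 of 12. Of 12 U2 protein genes 5 had a gene-end peak, with Sf3a1 at 4.15, Sf3b3 at 3.81 and Sf3a3 at 3.61, the 3 with an FDR up to 0.05, and Snrpb2 at 3.05. Of 7 Sm ring genes Snrpg (3.12, FDR 0.0494) and Snrpd3 (3.05, FDR 0.107) did. Of 14 genes of U4, U5 and U6 proteins Prpf31 (3.95) and Txnl4a (2.11, FDR 0.966) did, and of 4 genes of the 7SK particle Hexim1 (3.69, FDR 0.000995). The minor spliceosome had 3 of 7, Zcrb1 (2.92), Snrnp25 (2.87) and Snrnp35 (2.58), and the little elongation complex Ell (2.52) of 5, all above an FDR of 0.05. The 3 U1 protein genes, the 7 Lsm ring genes and the 5 genes of cap binding, export and capping had no gene-end peak.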

How the data were processed

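Pol II ChIP-seq peaks of 2 libraries were used, with positions on mm10. Reads were processed with fastp and BWA, per the submitters' processing notes, and the peak caller was not given in the sources used here. For every peak the authors deposited its length, its pileup (signal), its fold over background (a ratio), and its p-value with the FDR. The highest listed p-value was 0.00999 (OSS_128167) and 0.00956 (untreated). Genes came from the RefSeq table of GRCm38.p6 without its unplaced and alternate scaffolds, which held 7 of the 1004 snRNA genes, and without strand for snRNA genes. A peak was near a gene when their intervals lay at most 1000 bp apart, and a gene-end peak lay within 1000 bp of a boundary. Each gene takes its peak of highest fold. Shares have exact (Clopper-Pearson) 95% intervals, and no test compared the lists. The members and lists were chosen with earlier results of these data known. Genes were named by symbol type, fold, untreated peak, protein-coding neighbour and window edge, and cluster members and Ints2 besides were named after their values were seen. The planned search for the proximal element and TATA box was not run, since no promoter window of an snRNA gene was at hand. Distances were tested on simulated data, where 50 of 50 planted peaks were recovered over 300 genes. Intervals came from scipy 1.17.1, tables from pandas 2.3.3 in Python 3.11.15, and figures from matplotlib 3.10.9.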

Additional observations from a re-analysis of the deposited data

How the results depend on the processing

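The count of 65 snRNA genes with an OSS_128167 peak fell to 38 with an FDR limit of 0.05, 30 with an FDR limit of 1e-05, 35 with overlap required and 38 within 200 bp. It stayed within 1.5 times of 65 within 2000 bp (91), by peak centres (58), without genes near a protein-coding boundary (56), and without the U3 genes and Snord73b (59, an alternative chosen after seeing the data). The 73 distinct peaks became 38, 28, 34 and 36 under the first 4 settings and 114 within 2000 bp. The untreated count of 3 was 1 with the FDR limit of 0.05 and 0 with that of 1e-05. Clustered members numbered 26 at 100 kb and 15 at 10 kb. The median best fold was 3.79, and 9.98 with the FDR limit of 0.05 and 10.1 over overlapping peaks. The share near a protein-coding boundary was 13.8%, 23.7% with the FDR limit of 0.05, and 24.6% (exact 95% interval 14.8 to 36.9) within 5000 bp, where snRNA genes without a peak stood at 15.1% (12.8 to 17.7), against 2.56% within 1000 bp. The intervals thus overlapped at 5000 bp. At 1000 bp the difference is in part built in, since a neighbour's peak can bring a gene into the set, and it was not tested. Leaving out a library was not possible, and depth limits what the untreated list can show by an unknown amount. No paired analysis was possible because each condition had 1 library.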

Other observations

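Outside the chromosomes examined, 73 snRNA genes lie on X and Y. None of them had a peak within 1000 bp in either list.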
